A study of Drosophila melanogaster with 35 samples.

Results

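The antioxidant enzymes described here were taken by 4 gene symbols, Sod1, Sod2, Cat and Gtpx. Each probe set that the platform annotation pairs with 1 of these symbols was used, across all 8 groups of arrays. The rule found 3 genes of the 10844 that the annotation names, each with 1 of the 13966 probe sets tested: 1 for Sod2 (CG8905), 1 for Cat (CG6871) and 1 for Gtpx (CG12013). No probe set carried the symbol Sod1, alone or beside another gene, and Sod1 was not analysed here.

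RNA from groups of 25 adult male Drosophila melanogaster was hybridized to 35 Affymetrix DrosGenome1 GeneChips, short-oligonucleotide arrays on which a probe set reads the RNA of a gene. Every fly, controls included, had the genotype w[1118]/+; P{w+ rtTA}(3)[E2]/+, from Oregon-R crossed with a transgenic stock, was male, and was raised on standard food at 25 degrees. The aging study held 4 Old samples at 61 days of age, 6 Hyperoxia samples kept for 5 days in 100% oxygen from 3 days of age and sampled at 8 days by the labels, and 6 Young controls at 10 days. The Old and Hyperoxia cohorts had lost about as many flies as survived when they were sampled, so both hold survivors. The stress study held 3 Heat stress samples at 9 days (sucrose vials at 37 degrees for 5.5 hours), and 4 Ionizing radiation samples at 11 days (5666 rads per hour for 16 hours, then 2 days in 1% sucrose vials). It also held 4 Hydrogen peroxide samples at 11 days (3% peroxide added to 1% sucrose vials for 2 days), 4 Sugar samples at 11 days (1% sucrose vials alone for 2 days) and 4 Stress controls at 9 days. The irradiated and peroxide-fed flies were thus 2 days older than their Stress controls and had left standard food for sucrose. The Sugar samples share that age and that diet. The study left out a further Heat stress array for poor quality.

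Superoxide, a by-product of respiration, is turned into hydrogen peroxide by superoxide dismutases. Sod2 is the manganese enzyme of the mitochondrial matrix, and Sod1 the copper-zinc enzyme of the cytosol. Catalase, the product of Cat, splits hydrogen peroxide to water and oxygen and is concentrated in peroxisomes, while Gtpx is a peroxidase of the glutathione peroxidase family that reduces lipid and other hydroperoxides. In Drosophila, Gtpx draws its electrons from thioredoxin, and thioredoxin reductase also stands in for the glutathione reductase that flies lack.

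Gtpx RNA was up-regulated in flies under oxygen, after irradiation and on peroxide, and Sod2 RNA was lower in old flies and after irradiation by less than 1.5-fold. Cat was called in no comparison. Values are quantile-normalized signals, in arbitrary units. A gene was called where limma's nested F-test passed at a false discovery rate of 1% and the fold change was at least 1.5. Fold changes are on the log2 scale after adding 34.1 to each signal, and differences are condition minus control, with the SE and the adjusted p of limma's moderated test over all 13966 probe sets. The 3 probe sets were brightly hybridized: mean signals were above those of 94% of probe sets for Sod2, 98.5% for Cat and 98% for Gtpx. Whole flies were used, so fewer cells of a type and less RNA per cell cannot be told apart in any result.

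Array quality bears on some values. The ratio of 3′ to 5′ actin signal, which rises as RNA breaks down, reached 283 in replicate 2 of the Old arrays and 7.44 in replicate 1 of the irradiated arrays, against 1.48 to 7.09 in the other arrays. The 18S ribosomal RNA signal ran from 8.44 to 56.6 in the aging study and from 554 to 15700 in the stress study. Each group was therefore set only against the controls of its own study, and levels were not compared between studies. The Sugar arrays had been deposited on a lower scale, with trimmed means of 107 to 167 against 999 in each of the other 31, which the normalization removed.

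**Figure D1:**
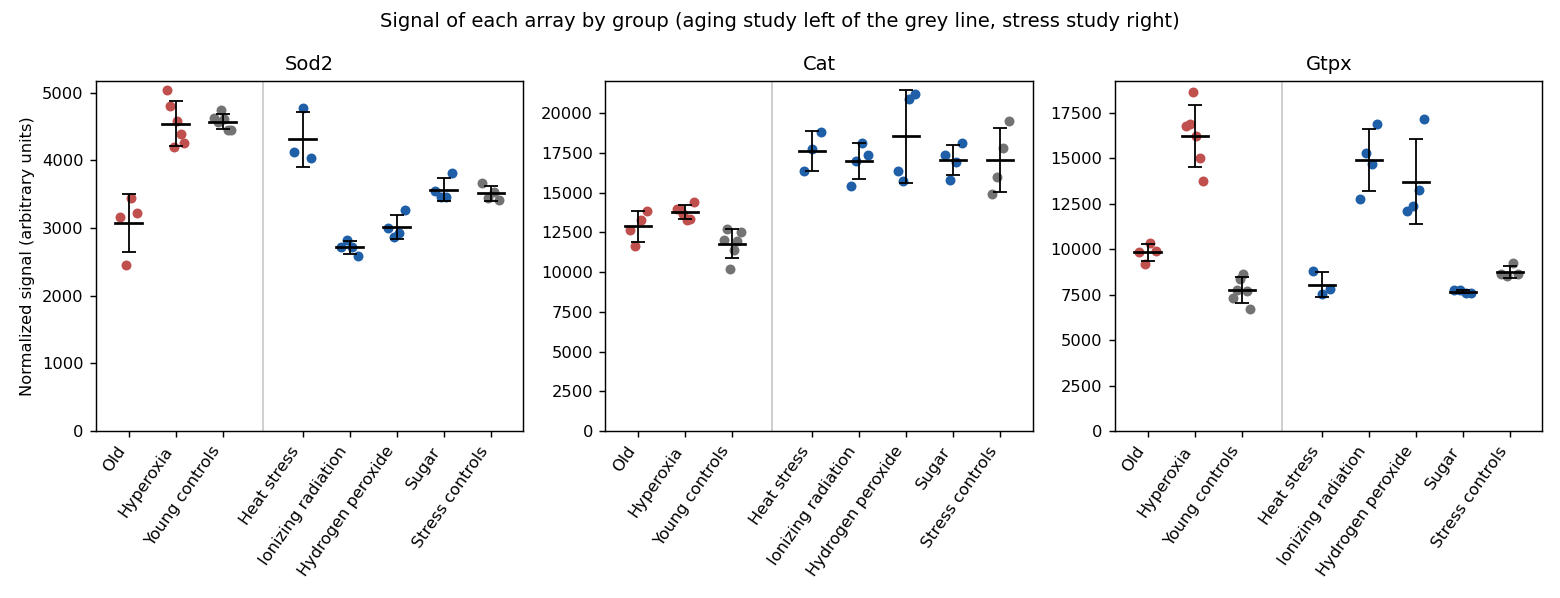
Normalized signal of Sod2, Cat and Gtpx (arbitrary units, vertical axes from 0) in each of 35 arrays, with the group mean as a bar and the SD as whiskers. Gtpx is at 13746 to 18647 in the Hyperoxia arrays and at 6708 to 8648 in the Young controls, and Sod2 at 2453 to 3440 in the Old arrays and at 4443 to 4743 in the Young controls.

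Sod2 fell in old flies, by an amount just short of the fold threshold. The Old arrays read 3166, 2453, 3440 and 3224, and the Young controls ran from 4443 through a median of 4586 to 4743. All 4 Old arrays lay below every Young control, as did the arrays of 9.49% of all probe sets. Old flies averaged 3071 ± 428 (SD, n = 4), against an average of 4572 ± 114 (SD, n = 6) for Young controls, a log2 difference of -0.58 ± 0.0816 (SE), or 1.49-fold lower (adjusted p = 1.79e-06). Because 1.49 is under 1.5, Sod2 does not count as called here, although it passed the test itself. The lowest array was Old replicate 2, the one with the actin ratio of 283. Without it the difference was -0.48 (adjusted p = 1.58e-05), so Sod2 remained lower, and further from the threshold.

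In flies kept in oxygen Sod2 showed no such difference. Hyperoxia arrays ran from 4204 through a median of 4480 to 5043, on both sides of the Young controls. The log2 difference was -0.01 ± 0.073 (SE), with a 95% interval of -0.16 to 0.14 (adjusted p = 0.951). Set directly against Hyperoxia, Sod2 in Old flies was 1.48-fold lower, a log2 difference of -0.57 ± 0.0816 (SE, adjusted p = 2.23e-06), again under 1.5-fold. All 4 Old arrays lay below all 6 Hyperoxia arrays, as for 9.24% of all probe sets.

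Among the stresses, Sod2 fell after irradiation. Ionizing radiation arrays read 2726, 2830, 2721 and 2583, against 3663, 3450, 3537 and 3414 in Stress controls. Each irradiated sample lay below each control, as for 12.8% of all probe sets. The log2 difference was -0.37 ± 0.0894 (SE), 1.29-fold lower (adjusted p = 0.00211), which passed the test and was under 1.5-fold, so Sod2 was not called there either. Against the Sugar arrays, which read 3551, 3453, 3457 and 3813, it was -0.39 ± 0.0894 (SE), 1.31-fold lower (adjusted p = 0.00129), again with no overlap, as for 14.6% of all probe sets.

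Peroxide-fed flies had Sod2 signals of 2995, 2873, 2930 and 3261. These too were below all 4 Stress controls (14.1% of all probe sets) and all 4 Sugar arrays (13.9% of all probe sets), but the difference was smaller, -0.22 ± 0.0894 (SE) on the log2 scale (adjusted p = 0.063), and against Sugar it was -0.24 ± 0.0894 (SE, adjusted p = 0.0445). Neither adjusted p was under 0.01. Hydrogen peroxide and Ionizing radiation did not differ in Sod2 past the threshold (log2 difference 0.15, 95% interval -0.03 to 0.33, adjusted p = 0.276), though all 4 peroxide arrays were above all 4 irradiated ones, as for 10.8% of all probe sets.

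Heat stress gave the opposite sign. The Heat stress arrays read 4131, 4770 and 4030, all above the Stress controls, as for 16.4% of all probe sets. The log2 difference of 0.29 ± 0.0965 (SE) had an adjusted p of 0.0318. Heat stress and Hydrogen peroxide differences of Sod2 passed the nested F-test, which eases the condition for a gene already changed in another comparison, though neither passed 0.01 by the moderated test. Sugar alone left Sod2 at 3568 ± 169 (SD, n = 4), against 3516 ± 111 (SD, n = 4) in Stress controls, a log2 difference of 0.02 with a 95% interval of -0.16 to 0.2.

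Set one effect against another, the Old effect on Sod2 was 0.87 below the Heat stress effect on the log2 scale, a difference of -0.87 ± 0.126 (SE, adjusted p = 3.21e-06) that was past 1.5-fold. Sod2 was the 1 of 3 members called, where 7.65% of all probe sets were called higher and 10.1% lower. This comparison crosses the studies through their own controls, and the part of the study difference in it was not tested. The Old effect differed from the Ionizing radiation effect by -0.21 (95% interval -0.46 to 0.04, adjusted p = 0.266) and from the Hydrogen peroxide effect by -0.36 (adjusted p = 0.0248). No member was called in either. Of all probe sets, 5.01% were called higher and 6.1% lower in the first, and 8.61% and 10% in the other.

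Cat was called in none of 14 comparisons. In the aging study the Old arrays read 12648, 11664, 13297 and 13871, and the Young controls ran from 10206 through a median of 11986 to 12697. The Old arrays overlapped the Young controls. Means were 12870 ± 947 (SD, n = 4) and 11797 ± 902 (SD, n = 6), a log2 difference of 0.13 ± 0.0933 (SE, 95% interval -0.06 to 0.32, adjusted p = 0.371).

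Hyperoxia gave the only Cat difference whose arrays did not overlap. Hyperoxia arrays ran from 13297 through a median of 13820 to 14419, all 6 above every Young control, as for 5.33% of all probe sets. The difference was small, 0.23 ± 0.0834 (SE) on the log2 scale or 1.17-fold, and missed the threshold (95% interval 0.06 to 0.4, adjusted p = 0.065).

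The stress arrays of Cat overlapped throughout. Heat stress arrays read 16329, 17720 and 18827, Ionizing radiation arrays 15431, 16977, 18097 and 17395, and Hydrogen peroxide arrays 16329, 15717, 20881 and 21220. The Sugar arrays read 17395, 15811, 16899 and 18097 and the Stress controls 14881, 15989, 17796 and 19479. Peroxide-fed flies thus split into 2 arrays among the controls and 2 above them all. The 95% intervals of the log2 difference from Stress controls were -0.17 to 0.28 for Heat stress, -0.21 to 0.21 for Ionizing radiation, -0.09 to 0.32 for Hydrogen peroxide and -0.2 to 0.22 for Sugar. All lie inside 1.5-fold in either direction.

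In the 6 comparisons with controls, Gtpx was the only member called, each time higher than in the controls. Hyperoxia arrays ran from 13746 through a median of 16514 to 18647, and Young controls from 6708 through a median of 7739 to 8648. The lowest Hyperoxia array was above the highest control, as for 5.33% of all probe sets. Means were 16221 ± 1690 (SD, n = 6) under oxygen and 7754 ± 702 (SD, n = 6) in Young controls, a log2 difference of 1.06 ± 0.0882 (SE), or 2.08-fold (adjusted p = 7.93e-11). Gtpx was the 1 of 3 members called in this comparison, in which 3.18% of all probe sets were called higher and 4.14% lower.

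Ionizing radiation also up-regulated Gtpx. The irradiated samples read 12757, 15274, 14685 and 16899, against 8648, 8523, 9253 and 8648 in Stress controls. All 4 stood above all controls, as for 14% of all probe sets. The log2 difference was 0.76 ± 0.108 (SE), or 1.69-fold (adjusted p = 1.77e-06). Ionizing radiation replicate 1, with the actin ratio of 7.44, had the lowest Gtpx value of its group, and without it the difference was 0.83 (adjusted p = 1.02e-06). Again 1 of 3 members was called, where 7.05% of all probe sets were called higher and 7.38% lower.

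Peroxide feeding gave a further rise of Gtpx, close to the fold threshold. Hydrogen peroxide arrays read 12087, 12397, 13249 and 17145, all above the Stress controls, as for 16.8% of all probe sets. The log2 difference was 0.63 ± 0.108 (SE), or 1.55-fold (adjusted p = 2.54e-05). The call rested on replicate 4, the highest array: without it the difference was 0.52 (adjusted p = 0.00028), which passed the test and was under 1.5-fold. Scaling all arrays to a common trimmed mean in place of quantile normalization likewise gave 0.52 (adjusted p = 0.000498). The share of all probe sets called was 8.22% higher and 8.81% lower, with 1 of 3 members called.

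Sucrose vials alone went with a slightly lower Gtpx signal. Sugar arrays of Gtpx read 7767, 7748, 7578 and 7593, all below the Stress controls (11.1% of all probe sets), a log2 difference of -0.19 ± 0.108 (SE, adjusted p = 0.301). Against Sugar, Gtpx was 1.93-fold higher after irradiation (log2 difference 0.95 ± 0.108 SE, adjusted p = 3.94e-08) and 1.77-fold higher on peroxide (0.82 ± 0.108 SE, adjusted p = 4.28e-07). The shares of all probe sets called higher and lower were 5.68% and 7.22% for Ionizing radiation versus Sugar, and 6.19% and 8.17% for Hydrogen peroxide versus Sugar, with 1 of 3 members called in each. Neither treatment overlapped Sugar, as for 14.2% and 16.4% of all probe sets. Hydrogen peroxide and Ionizing radiation did not differ in Gtpx past the threshold (log2 difference -0.13, 95% interval -0.35 to 0.09, adjusted p = 0.469).

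In old flies Gtpx rose less. Old arrays read 9849, 9193, 10359 and 9879, all above the highest Young control, as for 8.25% of all probe sets. The log2 difference was 0.34 ± 0.0986 (SE), or 1.27-fold (adjusted p = 0.00906). With Sod2 under the fold threshold as well, 0 of 3 members were called in Old versus Young controls, in which 5.02% of all probe sets were called higher and 8.11% lower. At any fold, 12.5% of probe sets passed the test as lower and 10.6% as higher. The adjusted p of Gtpx is close to 0.01 and passed above it in some alternatives, to 0.041 with only the groups compared in the fit.

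The Old effect on Gtpx was smaller than that of Hyperoxia in a direct test. Gtpx in Old flies was 1.64-fold lower than in Hyperoxia flies (log2 difference -0.72 ± 0.0986 SE, adjusted p = 1.11e-06). All 4 Old arrays were below all 6 Hyperoxia arrays, as for 9.24% of all probe sets. In that comparison 1 of 3 members was called, and 4.84% of all probe sets were called higher and 8.14% lower. The Old effect was below those of Ionizing radiation by -0.41 (adjusted p = 0.0483) and Hydrogen peroxide by -0.29 (adjusted p = 0.153), and the Hyperoxia effect exceeded the Hydrogen peroxide effect by 0.43 (adjusted p = 0.0329). None of these adjusted p-values was under 0.01. In the last of these, 4.58% of all probe sets were called higher and 3.87% lower. The Old and Hyperoxia comparisons share the Young controls, and the stress comparisons share the Stress controls.

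Heat stress, like Sugar, did not go with a called change of Gtpx. Heat stress arrays read 8808, 7551 and 7808, overlapping the Stress controls, for a log2 difference of -0.12 ± 0.117 (SE, 95% interval -0.36 to 0.11, adjusted p = 0.531). No member was called in Heat stress versus Stress controls, where 5.27% of all probe sets were called higher and 7.04% lower. None was called in Sugar versus Stress controls, where the shares were 2.8% and 2.13%, or in Hydrogen peroxide versus Ionizing radiation, where they were 4.37% and 4.54%.

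**Figure D2:**
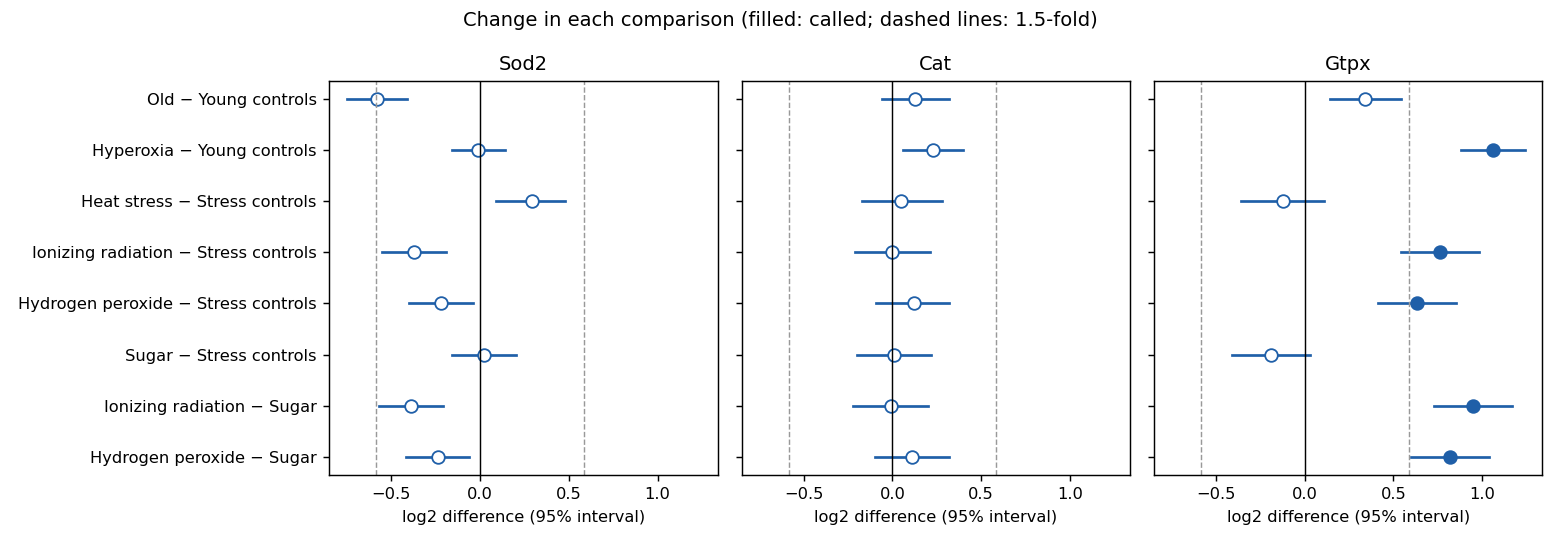
Log2 difference of Sod2, Cat and Gtpx in 8 comparisons, with the 95% interval as a line. Filled points were called, and the dashed lines mark 1.5-fold. Gtpx is filled in 5 rows, from 0.63 to 1.06, Sod2 in Old flies sits at -0.58 just inside the dashed line, and the points of Cat lie between -0.01 and 0.23.

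By group mean within the aging study, Gtpx was highest in Hyperoxia, then Old, then Young controls, and no 2 neighbours overlapped. In the stress study its order from the lowest was Sugar, Heat stress, Stress controls, Hydrogen peroxide, Ionizing radiation. Sugar overlapped Heat stress, Heat stress overlapped Stress controls, and Hydrogen peroxide overlapped Ionizing radiation. The mean was 14903 ± 1710 (SD, n = 4) after irradiation and 13719 ± 2340 (SD, n = 4) on peroxide, against 8055 ± 664 (SD, n = 3) under heat, 7672 on sugar and 8768 ± 329 (SD, n = 4) in Stress controls.

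The order of Sod2 was another. In the aging study Old was lowest and Hyperoxia (mean 4543) overlapped Young controls. In the stress study the order from the lowest was Ionizing radiation, Hydrogen peroxide, Stress controls, Sugar and Heat stress, and only Sugar and Stress controls overlapped as neighbours. For Cat, Young controls were lowest in the aging study, overlapped by Old, and Old in turn overlapped Hyperoxia. In the stress study the means of Cat ran from 16975 in Ionizing radiation to 18537 in Hydrogen peroxide, and every pair of neighbours overlapped.

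The other genes of the redox system were followed through 10 lists with 47 genes, of which 36 had a probe set. The lists and the members were chosen with results of these data known, so their counts describe the genes and test nothing. In Old flies 3 list genes were called higher and 1 lower, and under Hyperoxia 2 and 1. Heat stress gave 4 and 2, irradiation 7 and 5, peroxide 6 and 6, and Sugar 1 and 0. List medians of the log2 difference stood at 0.06 for Old, 0.11 for Hyperoxia, -0.03 for heat, -0.14 for irradiation, -0.08 for peroxide and -0.06 for Sugar, against medians over all probe sets of 0.035, 0.015, 0.003, 0.023, 0.045 and 0.007 in the same order. Beside the shares of all probe sets called higher and lower, the list counts in Old (3 and 1 of 36) stood next to 5.02% and 8.11%, and those in Hyperoxia (2 and 1 of 36) next to 3.18% and 4.14%. The shares were 5.27% and 7.04% for heat, 7.05% and 7.38% for irradiation, 8.22% and 8.81% for peroxide and 2.8% and 2.13% for Sugar. Without Old replicate 2 and Ionizing radiation replicate 1, Old gave 3 and 1, with 3 calls shared, irradiation 6 and 6, with 11 shared, peroxide 7 and 6, with 12 shared, and Sugar 1 and 1, with 1 shared.

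The partner and the relative of the dismutases had calls of their own. Ccs, the copper chaperone that loads Sod1, was up-regulated in Heat stress (log2 difference 1.07 ± 0.191 SE, adjusted p = 8.81e-05) and down-regulated in Hydrogen peroxide (-0.68 ± 0.176 SE, adjusted p = 0.00353). On peroxide against Sugar, Ccs stood at -0.52 and was not called. In Old flies Ccs stood at 0.22 (adjusted p = 0.364). Sod3, the secreted copper-zinc enzyme, was not called in its brightest probe set, which stood at -0.36 in Hyperoxia and 0.15 in Old. Its 3 probe sets disagreed: in another, of mean signal 685, Sod3 was at 0.67 in Old (adjusted p = 5.08e-05) and at -1.17 in Heat stress (adjusted p = 1.3e-07), both called.

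The relatives of Cat, unlike Cat, were called in some conditions. Irc, the immune-regulated catalase, was up-regulated in Old (log2 difference 1.3 ± 0.109 SE, adjusted p = 1.25e-10), Ionizing radiation (1.02 ± 0.12 SE) and Hydrogen peroxide (1.24 ± 0.12 SE). Irc was also called in Sugar, at 0.63 ± 0.12 (SE, adjusted p = 0.00102), where it was the only list gene called with all arrays. Without Old replicate 2 and Ionizing radiation replicate 1, foxo, a transcription factor gene of the insulin pathway, was also called in Sugar, at -1.31. With all arrays foxo stood at -1.32 there and was not called, and neither array left out belongs to Sugar or Stress controls. Against Sugar the Irc difference was 0.39 for Ionizing radiation (adjusted p = 0.016) and 0.61 for Hydrogen peroxide (adjusted p = 0.000196). In Hyperoxia it stood at 0.58, just under 1.5-fold. CatB, named as a catalase, was down-regulated in Old (-0.78 ± 0.101 SE, adjusted p = 4.93e-07).

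Gpxl, the other glutathione peroxidase-like gene, had calls of the opposite sign to Gtpx. It was down-regulated in Hyperoxia (log2 difference -0.7 ± 0.174 SE, adjusted p = 0.00416) and Hydrogen peroxide (-1.51 ± 0.213 SE, adjusted p = 1.09e-06), where Gtpx was called higher. In Ionizing radiation Gpxl stood at -0.56 (adjusted p = 0.0563) and was called, at -0.63, without Old replicate 2 and Ionizing radiation replicate 1. Prx3, the mitochondrial peroxiredoxin, fell in Ionizing radiation and in Hydrogen peroxide (both -0.86 ± 0.131 SE, adjusted p = 5.16e-06 and 4.33e-06), and stood at -0.06 in Old. Against Sugar, Gpxl was called lower on peroxide (-1.62), and Prx3 after irradiation and on peroxide (both -0.62). The peroxiredoxins Jafrac1 and Prx5 and the transcription factor gene cnc were not analysed here.

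Of the enzymes that supply reduced thioredoxin and glutathione, a few were called. Trxr1, the thioredoxin reductase of cytosol and mitochondria, was called higher in Heat stress (log2 difference 0.9 ± 0.098 SE), Ionizing radiation (0.92 ± 0.0907 SE) and Hydrogen peroxide (0.74 ± 0.0907 SE), and stood at 0.57 in Hyperoxia (adjusted p = 6.77e-07, under 1.5-fold). Unlike Gtpx it was thus called under heat. Against Sugar, Trxr1 was called after irradiation (0.66) but not on peroxide (0.48). Trxr2, the other reductase, was called in none of the 6 comparisons, with differences from -0.41 to 0.24. Gclc, the catalytic subunit of glutamate-cysteine ligase, was not called either with all arrays and had a wide error (0.73 ± 0.305 SE in Hydrogen peroxide, adjusted p = 0.0743). Without Old replicate 2 and Ionizing radiation replicate 1, Gclc was called there, at 0.72 (adjusted p = 0.000266). Gclm, its modifier subunit, fell in Ionizing radiation (-0.85 ± 0.0914 SE, adjusted p = 9.18e-09). Ggt-1, a gamma-glutamyl transpeptidase of glutathione salvage, rose in Old (1.19 ± 0.105 SE, adjusted p = 3.71e-10) and fell in Ionizing radiation (-0.76) and Hydrogen peroxide (-0.83). Its other probe set, of mean signal 234, stood at -0.32 in Old (adjusted p = 0.417). Against Sugar, Gclm was called lower after irradiation (-0.98), and Ggt-1 after irradiation (-0.7) and on peroxide (-0.76).

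Among repair and control genes, Srx, the sulfiredoxin that restores over-oxidized peroxiredoxins, rose in Ionizing radiation (log2 difference 1.32 ± 0.163 SE, adjusted p = 1.44e-07) and Hydrogen peroxide (0.72 ± 0.163 SE). MsrA, a methionine sulfoxide reductase, fell in Ionizing radiation (-1.07 ± 0.167 SE, adjusted p = 7.09e-06). Against Sugar, Srx (1.16) and MsrA (-0.95) were called after irradiation, and Srx was not called on peroxide (0.57). Keap1, which holds the antioxidant transcription factor CncC in check, rose 2.19 ± 0.214 (SE, adjusted p = 3.3e-09) in Heat stress and was called in none of the other 5 conditions. Ctr1B, a copper importer, fell in Heat stress (-0.98 ± 0.272 SE, adjusted p = 0.00878) and was also called lower in Ionizing radiation (-0.87). In Hydrogen peroxide it stood at -0.75 and was not called.

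Of the iron-storage genes, Fer1HCH and Fer2LCH were called in the same 3 stress conditions as Gtpx, against the controls of each study. Fer3HCH, of the same list, was called in none of them. It stood at -0.14 in Hyperoxia, 0.82 in Ionizing radiation and 0.06 in Hydrogen peroxide. Against Sugar, Fer1HCH (0.79) and Fer2LCH (0.7) were both called after irradiation. On peroxide against Sugar, Fer2LCH was called (0.8) and Fer1HCH was not (0.52). Fer1HCH and Fer2LCH encode the heavy and light chains of secreted ferritin. Fer2LCH was up-regulated in Hyperoxia (log2 difference 1.22 ± 0.0656 SE), Ionizing radiation (0.89 ± 0.0804 SE), Hydrogen peroxide (1 ± 0.0804 SE) and, just past 1.5-fold, Old (0.59 ± 0.0734 SE, adjusted p = 2.47e-07), and stood at 0.14 in Heat stress. The Fer2LCH call in Old was lost without Old replicate 2 and Ionizing radiation replicate 1, at 0.58 (adjusted p = 1.55e-06), while Ctr1A, a copper importer at 0.33 with all arrays, was called at 0.62. Fer1HCH was called in Hyperoxia (0.95 ± 0.0687 SE), Ionizing radiation (1.13 ± 0.0841 SE) and Hydrogen peroxide (0.86 ± 0.0841 SE), with 0.22 in Old and 0.13 in Heat stress.

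**Figure D3:**
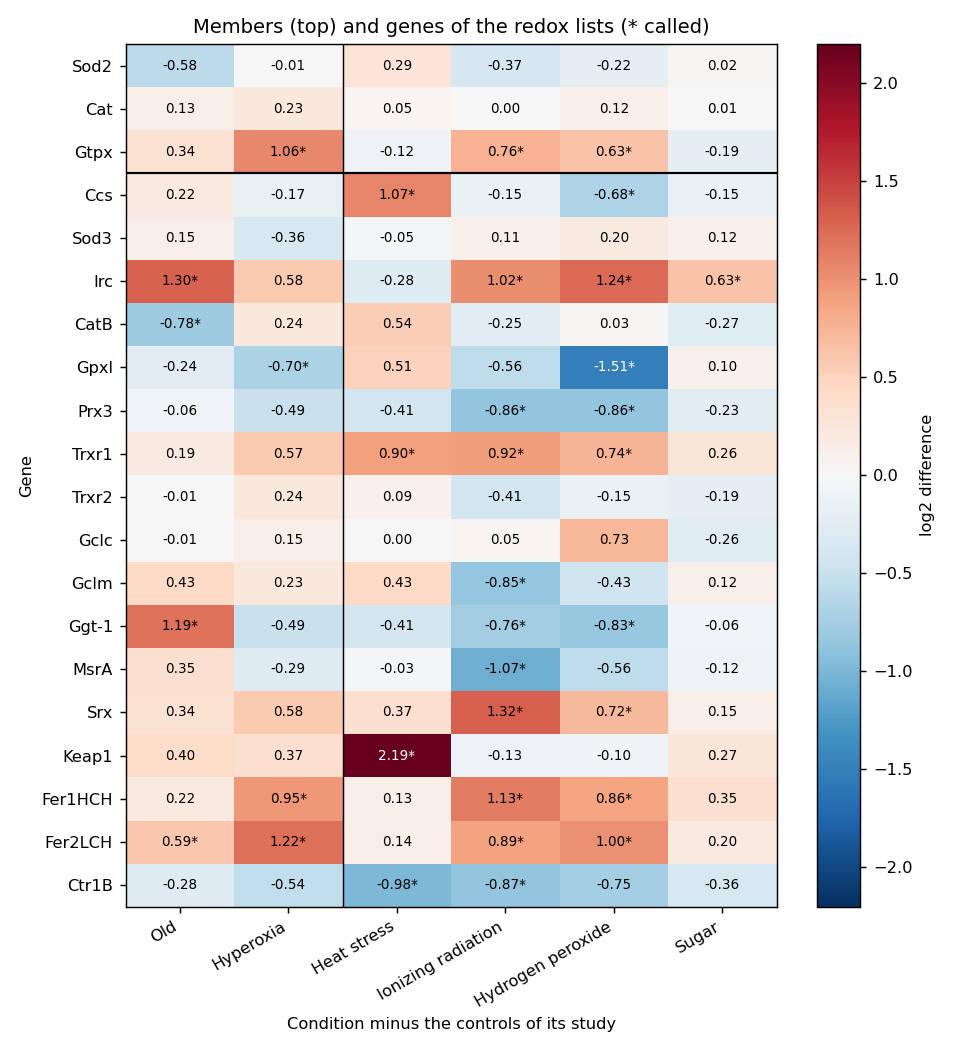
Log2 difference from the controls of its study (columns, with the aging study left of the line) for the 3 members and 17 genes of the redox lists (rows), red for higher and blue for lower, with called values starred. Gtpx, Fer1HCH and Fer2LCH are starred in Hyperoxia, Ionizing radiation and Hydrogen peroxide and unstarred in Heat stress.

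The genes whose signal followed each member most closely were sought among 9421 probe sets of 1 gene each, by Pearson correlation over the 35 arrays. The mean of each study's controls was first taken from its log2 values. The correlations are given as a description because the arrays share groups, studies and scaling. For Gtpx the closest genes were Fer2LCH (r = 0.93), the globin gene glob1 (r = 0.92) and GstD1, a glutathione S-transferase (r = 0.91). The log2 difference of glob1 was 1.23 in Hyperoxia and 0.66 in Old, and that of GstD1 0.92 and 0.32, so in both the Hyperoxia value was larger. In Heat stress they stood at 0.13 and -0.02.

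For Sod2 the closest were mitochondrial genes: ND-B17, a subunit of respiratory complex I (r = 0.91), Mpcp1, the mitochondrial phosphate carrier (r = 0.88), and COX5A, a subunit of cytochrome c oxidase (r = 0.87). Their log2 differences in Old were -0.97, -1.83 and -1.01, larger in size than the -0.58 of Sod2, and in Ionizing radiation -0.61, -1.23 and -0.57. In Hyperoxia they were -0.22, 0.21 and 0.14. For Cat no gene followed as closely, the 3 nearest being Cyp309a2, a cytochrome P450 gene (r = 0.71), Rip11, which encodes a partner of the vesicle GTPase Rab11 (r = 0.67), and Ntan1, an amidase of the N-end rule (r = 0.64).

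**Figure D4:**
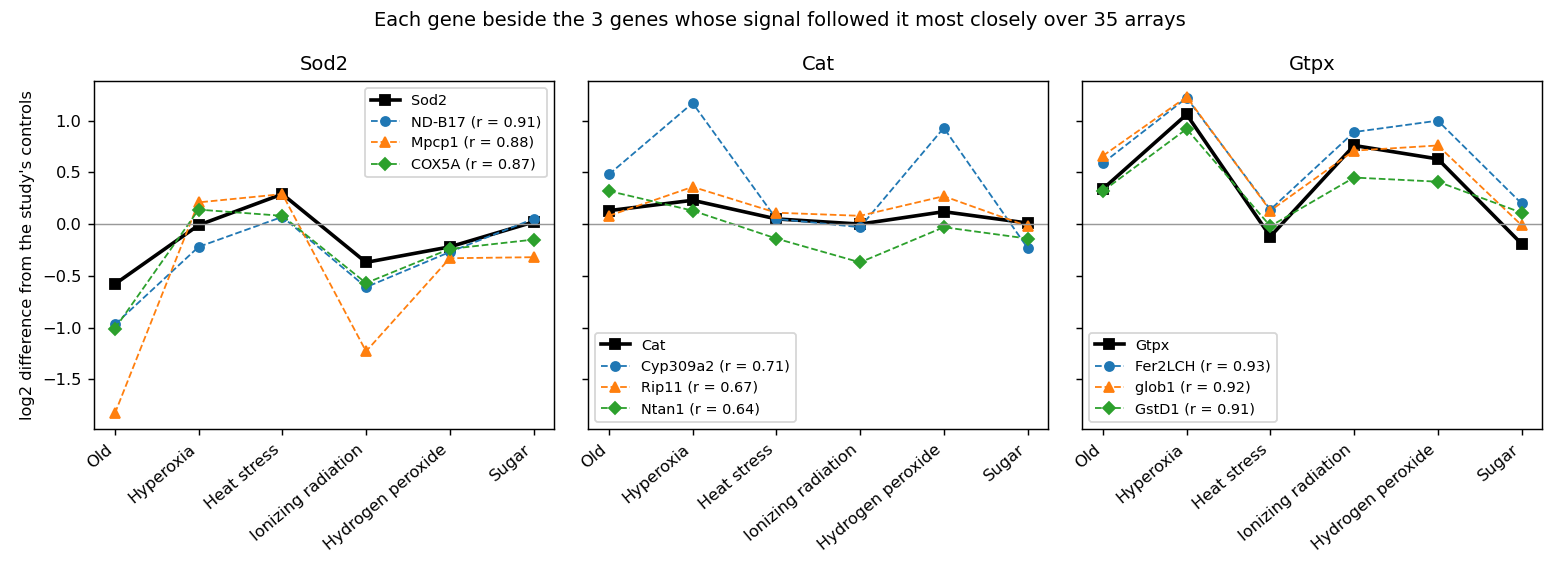
Log2 difference from the controls of its study in 6 conditions for each member (black squares) and the 3 genes with the highest correlation over 35 arrays (dashed). The Gtpx panel peaks at Hyperoxia for all 4 genes, the Sod2 panel has its lowest points at Old, and the Cat panel stays near 0 for Cat while Cyp309a2 reaches 1.17.

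Enzymes of the compartments where Sod2 and Cat work were set beside them. Of 14 mitochondrial matrix enzymes of the tricarboxylic acid cycle, 10 had a probe set, and in Old flies 5 were called lower and 0 higher (median log2 difference -0.56). They were Idh3a at -1.1, Idh3b at -0.88 and Idh3g at -0.71, subunits of isocitrate dehydrogenase, mAcon1, the aconitase, at -0.8, and SdhB, a subunit of succinate dehydrogenase, at -0.87. Without Old replicate 2 and Ionizing radiation replicate 1 the count was 4, with Idh3g at -0.58. Of all probe sets, 8.11% were called lower in Old. Under Hyperoxia 0 were called, with a median of 0.34, and in Ionizing radiation 0 were called, with a median of -0.17. Of 20 peroxisome genes, 14 had a probe set, and 1 was called higher in Old, ry, the xanthine dehydrogenase gene, at 0.72. In Hydrogen peroxide, where 8.22% of all probe sets were called higher and 8.81% lower, 1 was called higher, ry at 1.06, and 5 lower, among them ScpX, a peroxisomal thiolase, at -1.44, and Mfe2, an enzyme of peroxisomal fatty acid oxidation, at -0.99. Cat stood at 0.12 there.

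Tissue markers moved with several of these groups, and their part in the values of Sod2, Cat and Gtpx was not tested. The shares of all probe sets called, from 2.13% to 8.81% in a direction, are those given above for each comparison. Of 7 midgut markers, 4 were called lower in Old, 5 with oxygen, 7 with heat, 5 with irradiation, 7 with peroxide and 2 in Sugar. Summed midgut signals were 40339 to 68368 in Hydrogen peroxide against 173370 to 199622 in Stress controls. Of 9 accessory gland markers, 7 were called lower in Hyperoxia, 8 in Ionizing radiation and 8 in Hydrogen peroxide. In Sugar 5 of them were called lower, in Heat stress 3, and in Old 3, with 1 higher. Of 6 fat body markers, 4, 4 and 5 were called lower in Hyperoxia, Ionizing radiation and Hydrogen peroxide. In Sugar 2 fat body markers were called lower and 1 higher, in Heat stress 1 and 1, and in Old 0 and 1. The summed fat body signal was 25109 to 33536 in Hyperoxia against 42540 to 59581 in Young controls. In Heat stress, where 7 midgut markers were called lower, Gtpx stood at -0.12. Heat stress differed in age and in length of treatment from the groups where Gtpx was called. The part of midgut in the Gtpx values was not tested. Of 7 testis markers, 4 were called lower in Old, with sums of 14927 to 17246 against 23998 to 28406 in Young controls, while of 8 muscle markers 2 were called lower and 1 higher in Old. In Ionizing radiation 3 of the 8 muscle markers were called lower and 1 higher (1 and 1 without Old replicate 2 and Ionizing radiation replicate 1), and in Hydrogen peroxide 3 were called lower. Summed muscle signals were 61017 to 62725 in Heat stress, 41642 to 52911 in Ionizing radiation, 40946 to 47528 in Hydrogen peroxide and 45047 to 49194 in Sugar, against 53173 to 56084 in Stress controls. In Heat stress and in Sugar 0 of the 8 muscle markers were called. In Old the summed muscle signals were 48935 to 52178, against 45990 to 51383 in Young controls. Sod2 was above Stress controls in Heat stress, below them in Ionizing radiation and Hydrogen peroxide but not in Sugar, and below Young controls in Old. The part of muscle in the Sod2 values was not tested.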

How the data were processed

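RNA of 35 samples in 8 groups, taken from the sample labels, was measured on 1 array each. The deposited table holds signal intensity values, linear and not log-transformed, for 14010 probe sets. MAS5 is named in the submitters' processing notes (version not given in the sources used here), and from the values the authors scaled all but the Sugar arrays to a common trimmed mean. The paper's fold changes were computed from a multi-chip model, not from these intensities. Here 44 control probe sets were left out of the tests, the intensities were quantile normalized on the log scale, 34.1 (the 10th percentile) was added, and log2 values were fitted with limma 3.58.1 in R 4.3.3 as 8 group means (27 residual degrees of freedom).

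The 6 comparisons with controls used the nested F-test at a false discovery rate of 1% and 1.5-fold, and the 8 others limma's moderated test at an adjusted p under 0.01 and 1.5-fold, adjusted by Benjamini and Hochberg within a comparison. The number of arrays limits the precision. Replicate vials of 25 flies were processed separately for the stress study. The model was tested on data simulated for Old versus Young controls over 13966 probe sets, where 185 of 200 probe sets changed 4-fold were called in the right direction and 0 unchanged ones. The simulated noise was independent between arrays, without differences in RNA quality, and the changes were larger than those of the members. The simulation therefore does not bear on calls near 1.5-fold. Genes came from the platform annotation, with symbols updated through RefSeq Release 6: 12443 probe sets had 1 gene, 327 several and 1196 none. The brightest probe set stood for a list gene. Named are the members, a set of redox genes, up to 3 called list genes with the largest change per comparison, and the 3 genes most like each member among those above the 25th percentile of mean signal. The members and the lists were chosen with earlier results of these data known. Named outside the rule, after their values were seen, are Fer2LCH in Old, the tricarboxylic acid cycle enzymes and ry, ScpX and Mfe2. So are Fer3HCH and, from the fit without Old replicate 2 and Ionizing radiation replicate 1, foxo in Sugar and Ctr1A in Old. No pairing of samples by replicate number was found, and the alternatives tried were other pseudocounts, filters, scalings, fits and fold thresholds, and leaving out arrays.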

Additional observations from a re-analysis of the deposited data

Results flagged for a closer look

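A pair of results stood out because effects measured under the same kind of contrast differed by a test of the difference itself. Gtpx in Old versus Hyperoxia differed by -0.72 on the log2 scale (adjusted p = 1.11e-06 by limma), with both effects above the Young controls, Old at 0.34 and Hyperoxia at 1.06. For Sod2, the Old effect minus the Heat stress effect was -0.87 (adjusted p = 3.21e-06 by limma), with Old at -0.58 and Heat stress at 0.29. This crosses the 2 studies, and the part of the study in it was not tested. Of 21 sets of 4 to 6 arrays examined, each 1 gene in 1 group, 0 held an array far enough from the others to stand out, where chance gives about 1 in 20.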

How the results depend on the processing

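Of the differences of Sod2, Cat and Gtpx under all alternatives, 815 kept their direction and their side of the call, 17 passed the call only in the alternative, 2 lost it and 18 changed sign. The number of members called in Old versus Young controls was 0, and became 1 with a pseudocount of 1, 1 with the replicate number as a block, 2 with a fold threshold of 1.2, and 0 to 1 as each array was left out. The gene concerned was Sod2, called in 8 of 20 alternatives over log2 differences from -0.64 to -0.48, with Gtpx joining at 1.2-fold. Leaving out Young controls replicate 5 or 6 or Old replicate 1, 3 or 4 gave the call (-0.59 to -0.64), and leaving out Old replicate 2 gave -0.48. In Hydrogen peroxide versus Stress controls the count fell to 0 with trimmed-mean scaling, where Gtpx was at 0.52, and ran from 0 to 1 as each array was left out, with 0 without Hydrogen peroxide replicate 4 (Gtpx at 0.52). In Old versus Hyperoxia the count was 2 with the replicate block, and 1 to 2 as each array was left out, Sod2 being the gene gained. At 1.2-fold the count was 1 in Heat stress versus Stress controls and 2 in Ionizing radiation versus Stress controls. The cause of these changes was not tested.

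The changes of sign were all of uncalled values near 0. Cat in Sugar versus Stress controls was -0.05 with trimmed-mean scaling, and Cat in Ionizing radiation versus Sugar 0.04 without the 2 arrays of the highest actin ratio, an alternative chosen after seeing the data. As each array was left out, Cat ran from -0.01 to 0.12 in Heat stress, -0.06 to 0.07 in Sugar, -0.04 to 0.04 in Ionizing radiation versus Sugar and -0.06 to 0.08 in the Old effect minus the Hydrogen peroxide effect, and Sod2 from -0.01 to 0.04 in Sugar and -0.04 to 0.01 in Hyperoxia.

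Arrays of the same number in different groups did not deviate together: mean residual correlations ran from -0.0597 to 0.017 over 13 pairs of groups, and in 0 pairs of groups were all over 0.1. No pairing by number was thus found, and batches that the numbers do not follow were not tested. With the replicate block the number of probe sets called in Old versus Young controls was 1812, against 1834 without it. The 3 probe sets are brighter than at least 94% of all probe sets, and the number of arrays limits the precision.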
